A study of Drosophila melanogaster with 4 samples.

Results

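The cytosolic ribosomal protein genes of Drosophila melanogaster were followed in adult testes by cap analysis of gene expression (CAGE). In this assay the first base of a capped RNA is sequenced, and a read of that end, a tag, gives the place and strand where transcription began. The genes were taken from the Ensembl annotation of the BDGP6 assembly, which has the dm6 coordinates of the deposited tables. Their symbols begin with RpL or RpS and a digit, or are RpLP0, RpLP1, RpLP2 and sta, with pseudogenes left out. This gave 92 genes among 24254 annotated genes, 53 for the large subunit and 39 for the small subunit. All 92 had at least 1 TPM in either group, as did 13063 genes in all, where TPM stands for tags per 1000000 tags in the clusters of a group. A start cluster, a set of neighbouring start positions joined by the authors, was credited to a gene when its dominant position lay on the same strand in the gene body or within 100 bp of an annotated transcription start site (TSS).

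Both groups were testes of males aged 0 to 2 days from crosses kept for 3 days at 25 °C, whose eggs and early larvae were then moved to 29 °C. Control males had the genotype bamGAL4. Knockdown males had the genotype bamGAL4/ KmgRNAi, so the driver was present in every sample. The bam promoter is known to drive expression in germ cells, while whole testes also hold somatic cells. RNA came from 150 pairs of testes. Each group had 2 libraries, and the deposited tables hold 1 pooled value per group. The values below therefore have no replicate spread and no test, and each difference compares the pooled libraries. The control libraries were read at 76 bp and the knockdown libraries at 150 bp, so that read length and genotype cannot be told apart.

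Ribosomal proteins coat the ribosomal RNA of the large and the small subunit, and nearly all of them are needed in equal number per ribosome. In flies their genes are known for very narrow starts within a run of pyrimidines, and many of them cause Minute phenotypes when a copy is lost. A few proteins are encoded by a pair of genes or more, of which the second copy is often expressed mainly in the germline. Males use such copies in the testis, among them RpL22-like.

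The pooled control libraries held 56519714 tags in 32731 clusters and the pooled knockdown libraries 34975246 tags in 57330 clusters. Over the 25902 consensus clusters called in both groups, the log2 ratio of knockdown to control had a median of 0.71. Ratios are therefore also given after rescaling by this shift. The target of the knockdown, kmg, was at 48.5 TPM in control against 12.7 TPM in the knockdown. All 10 spermatocyte and spermatid markers were present in both groups, with a median log2 ratio of 0.63 and summed levels of 6879 and 5670 TPM. The sum was set by dj, at 2978 and 569 TPM, and the other 9 summed to 3901 and 5101 TPM, with mia and twe up by over 4-fold. The 3 early germline markers, bam, vas and zpg, summed to 38.5 and 99.1 TPM, with a median log2 ratio of 1.78. Markers of the muscle sheath and accessory gland were lower in the knockdown, while those of cyst cells and hub went both ways. The 4 muscle sheath markers, all detected, summed to 1076 TPM in control against 248 TPM in the knockdown. The 4 accessory gland markers summed to 144 and 5.12 TPM, with no cluster credited to Acp26Aa in the knockdown. The 4 cyst cell markers summed to 53.0 and 156 TPM, through so at 19.5 and 121 TPM, while eya was at 23 and 20.2 TPM and tj at 4.37 and 3 TPM. The 4 hub markers summed to 135 and 144 TPM, with CadN at 7.87 and 50.4 TPM and Fas3 at 118 and 82.1 TPM. The part of these cell types in the levels below was not tested, and fewer cells of a type cannot be told apart from less RNA per cell in whole tissue.

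The ribosomal protein genes together took 2.77% of all control tags and 4.56% of all knockdown tags. Their median level was 268 TPM in control against 405 TPM in the knockdown. The lowest control level was 13.0 TPM and the highest 1567 TPM. In the knockdown, levels ran from 5.83 to 2232 TPM. CAGE counts a tag per captured RNA end, so these levels were not divided by transcript length.

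In control, the highest levels belonged to RpS29 with 1567 TPM, RpLP2 with 1254 TPM, RpS27A with 825 TPM, RpL27A with 800 TPM and RpL13A with 788 TPM. RpLP2 is a protein of the stalk that recruits elongation factors, and RpS27A is made as a fusion with ubiquitin. The main cluster of RpS27A, with 818 TPM in control, was claimed by 2 genes in both groups. The first place of RpS29 rested on an intronic cluster described below, without which it stood at 901 TPM. Its knockdown level was 1418 TPM. The 5 lowest levels were all those of second copies of paralog families. RpS15Ab was at 13.0 TPM, RpL7-like at 22.6 TPM, RpS14b at 34.4 TPM, RpL34a at 37.5 TPM and RpL24-like at 46.6 TPM. Among the other 79 genes the range was 47.8 to 1567 TPM. Its lower end was held by RpL5, which binds the 5S ribosomal RNA, and by RpL4 with 48.0 TPM.

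**Figure D1:**
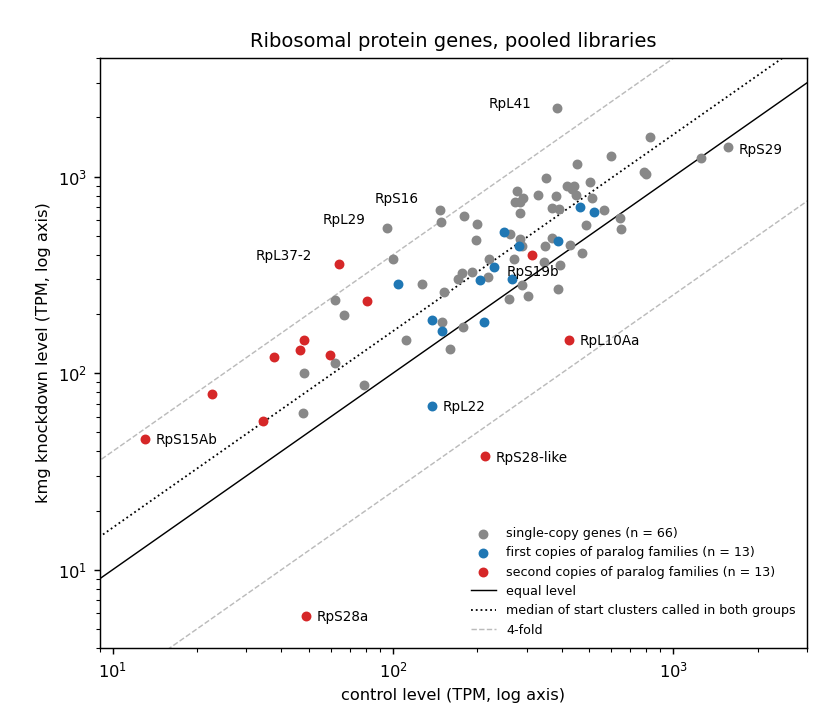
Level of each of the 92 ribosomal protein genes in the pooled control (x axis, TPM, log scale) and pooled knockdown libraries (y axis, TPM, log scale), coloured by copy. Most points lie around the dotted line at the median log2 ratio of 0.71, with RpL41, RpL29, RpS16 and RpL37-2 above the upper 4-fold line and RpS28a and RpS28-like below the lower one.

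Levels of most ribosomal protein genes were higher in the knockdown, and how they stood to other genes depended on which starts were counted. Their median log2 ratio, computed as log2((knockdown + 1 TPM) / (control + 1 TPM)), was 0.76, with a range from -2.87 to 2.53. The median of all 13063 genes was 0.68. After rescaling these medians were 0.05 and -0.02. With clusters at annotated TSSs alone, the medians were 0.67 for the ribosomal protein genes and -0.04 for all genes. Counting only a gene's strongest cluster gave 0.71 and 0.40. Of the 92 genes, 75 had a ratio above 0, and 49 did so after rescaling. The share of all genes above 0 is not given here, but their median of 0.68 lay above 0 as well before rescaling. Among genes with a mean of at least 100 TPM over both groups, a class set after the values were seen, the median of the 80 ribosomal protein genes was 0.71. The 2090 other genes of that class had a median of -0.24. A ratio above 0 was found in 80% of the ribosomal protein genes of the class and in 42.4% of the others. The large and the small subunit genes had medians of 0.77 and 0.71.

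By a rule of 4-fold change on this scale, a log2 ratio of 2 or above or of -2 or below, 4 of the 92 genes (4.35%) rose, beside 21.4% of all genes, and 2 (2.17%) fell, beside 5.44% of all genes. With clusters at annotated TSSs alone the same 6 genes passed, beside 7.84% of all genes up and 9.5% down. RpL41, the smallest ribosomal protein, was at 386 TPM in control against 2232 TPM in the knockdown, a 5.78-fold rise with a counting interval of 5.69 to 5.86. RpL29, a protein of the large subunit surface, was at 95.5 and 547 TPM, RpS16, which lies near the P site of the small subunit, at 147 and 678 TPM, and the second copy RpL37-2 at 64.2 and 360 TPM. None of these 4 passed after rescaling, when 14.1% of all genes rose and 9.36% fell. Their log2 ratios were then 1.81 for RpL41, 1.79 for RpL29, 1.76 for RpL37-2 and 1.48 for RpS16. RpL38 lay just under the rule at 1.99, with 148 and 588 TPM. The 2 genes that fell were second copies of the S28 family and are given with the paralogs. All counting intervals are 95% intervals and cover counting error only.

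The paralog families changed their composition. The share of a copy among the tags of its family does not depend on how the groups are scaled to each other. Whether the copies of a family were told apart equally well by reads of 76 bp and of 150 bp was not tested. Of 13 second copies, 10 held a larger share in the knockdown and 3 a smaller share. With clusters at annotated TSSs alone the counts were 9 and 4, since the share of RpL7-like was then 12.6% and 7.84%. First and second are names given here, the first copy being the gene known for expression in most tissues.

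The L22 family showed the widest change in favour of a second copy. RpL22 was at 138 TPM in control against 68.2 TPM in the knockdown, and RpL22-like at 59.5 and 124 TPM. RpL22-like thus went from 30.1% of the family's tags (exact binomial interval 29.2 to 31.0) to 64.4% (63.3 to 65.6), and the order of the copies turned. RpL22 had the lowest log2 ratio of any gene that was not a second copy, at -1.01.

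The L10A family went the other way. RpL10Aa, a second copy without introns, was the stronger gene in control with 423 TPM, beside 248 TPM for RpL10Ab. In the knockdown RpL10Aa was at 148 TPM and RpL10Ab at 521 TPM. The share of RpL10Aa was 63.1% (62.6 to 63.5) in control and 22.1% (21.6 to 22.7) in the knockdown. Its log2 ratio of -1.51 did not pass the rule, but reached -2.21 after rescaling.

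The S28 family has 3 genes, for a small protein near the exit of the mRNA channel, and both second copies fell. RpS28-like was at 213 TPM in control against 37.8 TPM in the knockdown, 5.63-fold lower (5.32 to 5.96). RpS28a was at 48.8 and 5.83 TPM, 8.37-fold lower (7.26 to 9.70). RpS28b, the first copy, was at 464 and 700 TPM. Its share was 63.9% and 94.1% of the family's tags.

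In most other families the second copy held more of the tags in the knockdown. RpL37-2 went from 11% (10.6 to 11.3) to 35.3% (34.8 to 35.8) of its family, beside RpL37-1 at 521 and 659 TPM. RpL34a, at 37.5 and 121 TPM, went from 15.1% to 40.1%, while RpL34b was at 212 and 182 TPM. RpS10a, at 48.0 and 148 TPM, went from 15.3% to 33.1%, beside RpS10b at 265 and 301 TPM. RpS5b, a copy known from the female germline, was at 80.8 and 233 TPM and its share was 28.4% and 43.9%, beside RpS5a at 204 and 297 TPM. RpS15Ab held 8.59% and 19.9%, beside RpS15Aa at 138 and 187 TPM. RpL24-like, a relative of an assembly factor rather than a ribosomal subunit, held 14.2% and 22.9% of the tags it shared with RpL24, which was at 281 and 443 TPM.

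A pair of families kept nearly the same composition. RpS19b was at 313 TPM in control against 401 TPM in the knockdown and held 44.7% (44.2 to 45.2) and 46.2% (45.6 to 46.7), nearly as much as RpS19a at 387 and 468 TPM. RpS14b held 13.1% (12.5 to 13.6) and 14% (13.5 to 14.6), beside RpS14a at 229 and 348 TPM. The S14 genes are neighbours on chromosome X, RpS14a from 7933742 to 7934677 and RpS14b from 7934898 to 7935792. They are close copies, so the split of tags inside their coding exons is uncertain.

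RpL7-like needs its own account, since its tags came from other starts in the knockdown. Its cluster at the annotated TSS, on chromosome 2L from 12056321 to 12056453, was at 21.4 TPM in control against 10.9 TPM in the knockdown. A coding-exon cluster from 12056716 to 12056785 was at 0.566 and 60.6 TPM, a log2 ratio of 5.30. With all clusters, the share of RpL7-like beside RpL7 went from 13.1% to 32.4%, but with clusters at annotated TSSs alone it was 7.84% in the knockdown. The overlapping gene CG34164, from 12056348 to 12058251 on the same strand, claims all of these clusters.

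RpLP0-like, which is not among the 92 genes and is related to an assembly factor, was at 15.3 and 14.6 TPM. RpLP0, the base of the stalk, was at 104 and 284 TPM. The share of RpLP0-like was 12.8% in control and 4.9% in the knockdown, a fall like that of the 3 second copies above.

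**Figure D2:**
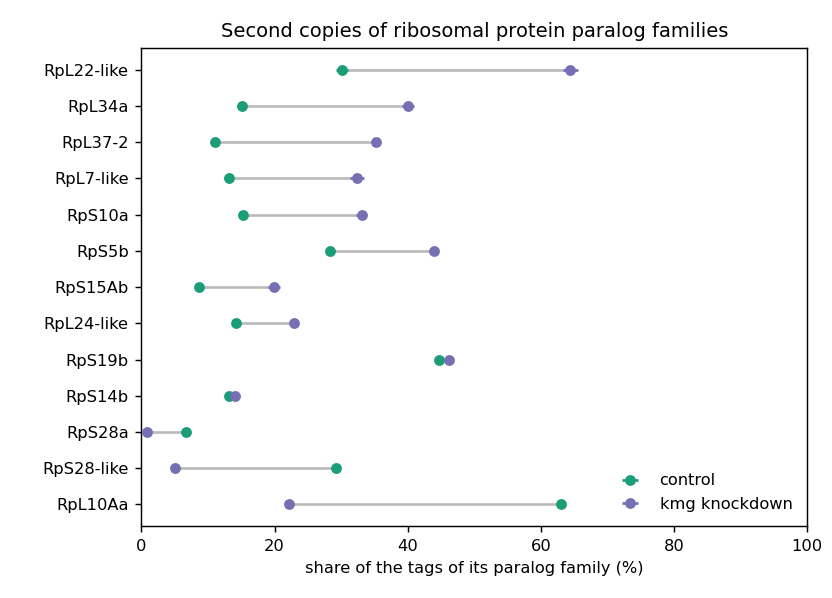
Share of the tags of its paralog family (x axis, %) held by each of the 13 second copies in the pooled control and pooled knockdown libraries, with exact 95% binomial intervals mostly smaller than the points. RpL22-like moved from 30.1% to 64.4% and RpL10Aa from 63.1% to 22.1%, and 10 of the 13 copies lay further right in the knockdown, RpL7-like only when its coding-exon cluster is counted.

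The main starts of the ribosomal protein genes were narrow. The interquantile width, the distance between the positions that bound the middle of a cluster's tags from the 10% to the 90% quantile, had a median of 12 bp in control for the strongest cluster of each gene, here called the main cluster. Genes with a main cluster of at least 100 TPM in control, 1925 in all, had a median of 45 bp. Sharp main clusters of 10 bp or less made up 43 of the 92 genes (46.7%), beside 16.6% of those 1925 genes. Mitochondrial ribosomal protein genes, which build the ribosome of another compartment, were broad. Of 72 with a main cluster of at least 5 TPM in control, 1 was sharp, and their median was 57 bp.

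Width differed by copy, though the ranges overlapped. The 66 single-copy genes had a median control width of 9 bp and a range from 2 to 62 bp, and 35 of them were sharp. The 13 first copies had a median of 6 bp and a range from 3 to 48 bp, with 8 sharp. None of the 13 second copies was sharp, and their median was 47 bp, with a range from 14 to 208 bp. The second copies were also weaker, with a median control level of 48.8 TPM, beside 283 TPM for the other 79 genes. Of the 6 genes without introns, 5 were second copies, the other being RpLP2.

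The narrowest main clusters in control were those of RpL28 and sta at 2 bp and of RpL22 and RpL12 at 3 bp. RpS15, RpS20, RpS19a and RpL37-1 shared a width of 4 bp. The gene sta encodes the small subunit protein known as the laminin receptor homolog, and 86.4% of its main cluster's tags began at a single position in control and 85.6% in the knockdown. The broadest were RpS19b at 208 bp, RpL22-like at 99 bp, RpS28-like at 96 bp, RpL7-like at 84 bp and RpS10a at 68 bp, all second copies. In RpS19b the dominant position lay at the upstream edge of the cluster and the tags reached 207 bp downstream of it.

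The main clusters were somewhat broader in the knockdown. The median width of the 92 genes was 16 bp, and 30 (32.6%) were sharp, beside 13.9% of the 1796 genes with a main cluster of at least 100 TPM there, whose median width was 55 bp. Over all genes with a main cluster of at least 5 TPM, 16.5% were sharp in control and 10.2% in the knockdown. The main cluster was wider in the knockdown in 49 genes (53.3%), narrower in 25 (27.2%) and of equal width in 18. Among the 7589 genes whose main clusters reached 5 TPM in each group, 61.6% were wider and 25.5% narrower. The median difference in width was 1 bp for the ribosomal protein genes, beside 6 bp for all genes compared.

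**Figure D3:**
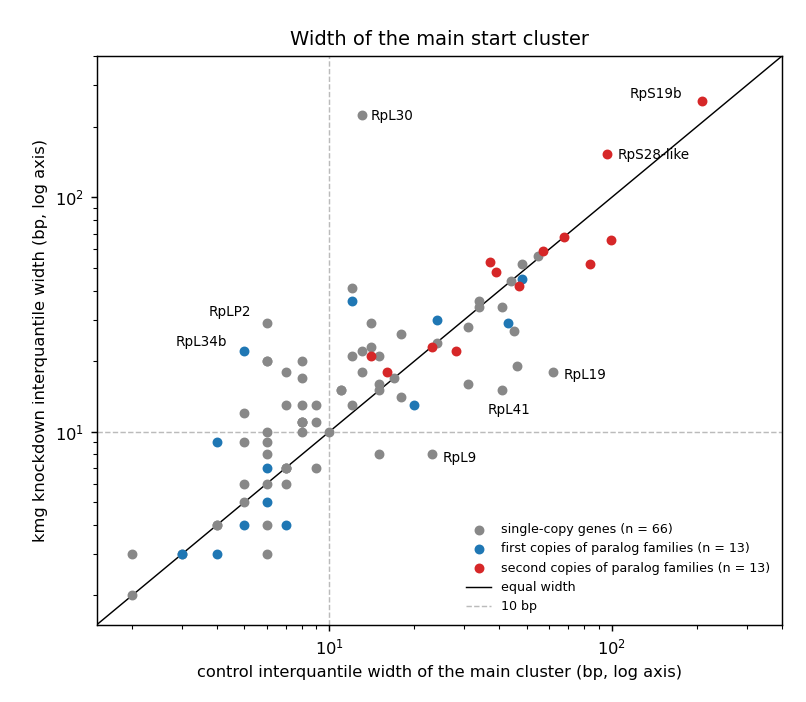
Interquantile width of the main cluster of each of the 92 genes in control (x axis, bp, log scale) and knockdown (y axis, bp, log scale), coloured by copy, with dashed lines at 10 bp. All 13 second copies lie right of the dashed line and RpL30, at 13 and 225 bp, lies farthest above the diagonal.

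RpL30 had the greatest widening among the 92 genes. Its main cluster had a width of 13 bp in control against 225 bp in the knockdown. The downstream quantile position lay 211 bp past the dominant position in the knockdown, beside 6 bp in control. On chromosome 2L the knockdown cluster ran from 19008870 to 19009306 and the control main cluster from 19009036 to 19009306. The knockdown width thus took in downstream positions outside the control main cluster, and these starts are not among the gained clusters below. The dominant position held 25.6% of the tags in control and 13.2% in the knockdown. The gene was at 99.8 and 380 TPM. RpLP2 went from 6 to 29 bp and RpL34b from 5 to 22 bp, the first with tags reaching 22 bp downstream and the second with tags reaching 21 bp upstream of the dominant position.

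Other genes had narrower main clusters around a start that stayed in place or moved by a few bases. RpL41 went from 41 to 15 bp, and its dominant position held 20.6% of the tags in control and 48.5% in the knockdown. The tags of its control cluster reached 35 bp upstream of that position, and those of the knockdown 9 bp. RpS16 went from 45 to 27 bp, with an upstream reach of 38 and 22 bp. RpL19, whose dominant position moved 4 bp downstream, went from 62 to 18 bp, with an upstream reach of 53 and 15 bp. RpL9 went from 23 to 8 bp, with an upstream reach of 20 and 5 bp. In these 4 genes the difference lay mainly on the upstream side, but this did not hold for every narrowed cluster. RpL22-like went from 99 to 66 bp with a downstream reach of 56 and 25 bp. RpL5 went from 31 to 16 bp with a downstream reach of 30 and 12 bp, and RpLP0 from 43 to 29 bp with 20 and 8 bp.

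Among the 79 genes that were not second copies, level and width changed together to some degree. The 17 genes with a control width over 20 bp had a median log2 ratio of 1.16, with none below 0.15, and a median control level of 192 TPM. The 43 sharp genes had a median log2 ratio of 0.54, a range from -1.01 to 1.80 and a median control level of 349 TPM. The 19 genes between these widths had a median of 0.79. Of the broad genes 10 were narrower and 4 wider in the knockdown, and of the sharp genes 8 were narrower and 24 wider. The classes were set on the control width, and such counts can arise from that choice alone. They are a description of the same clusters. Across the 79 genes, Spearman's rho was 0.28 between control width and log2 ratio and -0.43 between the log2 change of width and the log2 ratio. It was -0.26 between control level and log2 ratio and -0.37 between control level and control width. The genes share the same pooled libraries and are not replicates. A wider set was the 1905 genes with main clusters of at least 100 TPM in control and at least 5 TPM in the knockdown. There rho between control width and log2 ratio was 0.03. No value for the change of width is given here for that set, so the -0.43 has no background beside it.

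**Figure D4:**
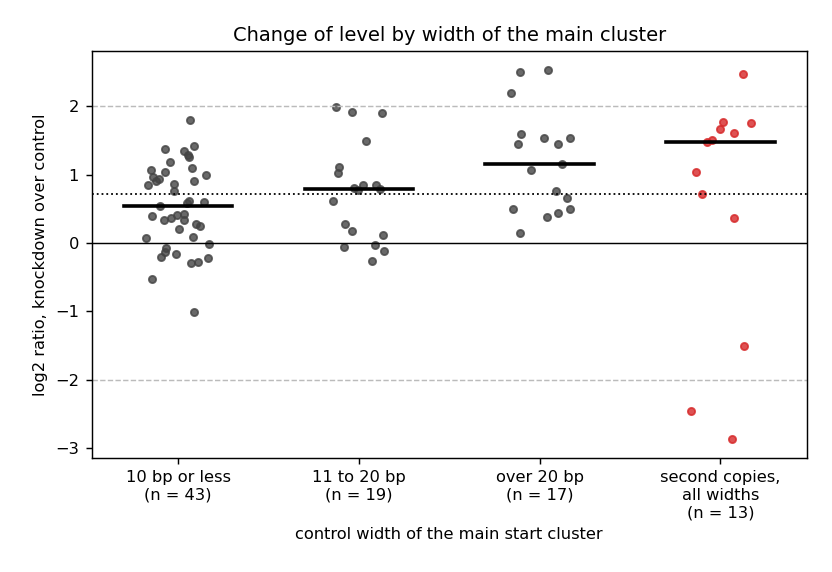
Log2 ratio of knockdown to control (y axis) for the 79 genes that were not second copies, by control width of the main cluster (x axis), and for the 13 second copies. Bars mark the medians of 0.54, 0.79, 1.16 and 1.47, the dotted line the scale shift of 0.71 and the dashed lines the 4-fold rule.

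The position of the main start was kept in most genes. In control, all 92 main clusters lay within 100 bp of an annotated TSS, and the dominant position was a median of 6 bp downstream of it. It lay 0 to 10 bp downstream in 70 genes, and this was so in 24.2% of all genes with a main cluster of at least 100 TPM. In 5 genes it lay upstream, farthest in RpL10Aa at 39 bp and RpL12 at 33 bp. The dominant position was identical in both groups in 80 of the 92 genes (87.0%), beside 51.6% of the same 7589 genes. It moved by 1 to 10 bp in 8 genes. In 4 genes it moved by over 10 bp, beside 41.0% of those 7589 genes.

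Of the 4 shifted genes, 3 were second copies. RpS10a moved 67 bp upstream, from 63 bp downstream to 4 bp upstream of its annotated TSS, within a cluster 68 bp wide in both groups. RpS28a moved 36 bp upstream while its level fell, and its cluster was 37 bp wide in control and 53 bp in the knockdown. RpL7-like moved 295 bp downstream, to the coding-exon cluster given above. RpLP0, a first copy, moved 11 bp downstream, just past the limit, and the genes just inside it moved by at most 5 bp.

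Starts away from the main cluster were many but weak. After clusters of both groups were joined where they overlapped, the 92 genes had 231 further clusters. These held 4.75% of their tags in control and 3.95% in the knockdown. The median share of a gene's tags in its main cluster was 98.7% and 97.7%. Coding exons held 148 of the further clusters, introns 45, annotated TSSs 15, 5′ UTRs 14 and 3′ UTRs 9. The summed level in coding exons was 345 TPM in control against 904 TPM in the knockdown, and in 3′ UTRs 2.28 and 35.1 TPM. In introns it was 799 and 566 TPM, and RpS29 alone held 666 and 245 TPM of these.

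The intronic cluster of RpS29 lay on chromosome 3R from 9778289 to 9778690, on the plus strand, with its dominant position 286 bp downstream of an annotated TSS. It held 666 TPM in control against 245 TPM in the knockdown, 2.72-fold lower (2.65 to 2.78). That was 42.5% of the tags of RpS29 in control and 17.3% in the knockdown. The cluster overlaps the gene snoRNA:Psi18S-1275, which spans 9778398 to 9778537 on the same strand and guides pseudouridylation of ribosomal RNA, and the dominant position lay 15 bp upstream of it. Without this cluster RpS29 was at 901 and 1173 TPM. In all, 14 of the further clusters in 14 genes were also claimed by a snoRNA gene, 3 of them with 10 TPM or more in either group.

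RpL35 and RpS30 had a strong further cluster in both groups. RpL35 had a cluster 2 bp from a downstream annotated TSS, on chromosome X from 5672646 to 5672847, with 105 TPM in control against 157 TPM in the knockdown. Its main cluster held 62.7% and 66.4% of the gene's tags. RpS30, which is made as a fusion with a ubiquitin-like protein, had a broad intronic cluster on chromosome 3R from 20850670 to 20850938 with 88.0 and 135 TPM.

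Some further clusters were gained or lost. Of the 192 further clusters that reached 1 TPM in a group, 33 (17.2%) rose by the 4-fold rule, beside 29.3% of all 48608 joined clusters of the series. The count depends on the setting: it was 53 (27.6%, beside 47.9% of all) with a pseudocount of 0.5 TPM, 9 (4.69%, beside 11.5%) with 3 TPM and 20 (12.9%, beside 22%) after rescaling. The 33 clusters lay in 26 genes, 18 of them in coding exons, with a median knockdown level of 7.98 TPM and a highest of 31.2 TPM. Another 3 (1.56%) fell, beside 3.21% of all. The median log2 ratio was 1.04, beside 1.35 for all joined clusters.

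Apart from the coding-exon cluster of RpL7-like, which became the main cluster of that gene, the 5 strongest gained clusters were in RpL13, RpS13, RpL23A, RpL34a and RpL19. That of RpL13 lay 100 bp past the annotated TSS, at 9967390 to 9967512 of chromosome 2L, and went from 1.75 to 31.2 TPM. The main cluster of RpL13 was at 153 and 75.9 TPM, and its share of the gene's tags was 95.4% in control and 57.5% in the knockdown. The other 4 were in coding exons. The RpS13 cluster spanned 8363993 to 8364153 on chromosome 2L and went from 3.26 to 28.3 TPM, and the RpL23A cluster from 4.87 to 26.7 TPM. The RpL34a cluster spanned 26058983 to 26059079 on chromosome 3R and went from 0.778 to 22.6 TPM, and the RpL19 cluster from 1.75 to 22.6 TPM. In RpL4 the main cluster held 81.9% and 46.7% of the tags, and a coding-exon cluster 895 bp downstream went from 0.230 to 15.8 TPM.

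The 3 lost clusters were those of RpL26, RpS3 and RpL17. RpL26 has a pair of annotated TSSs, and its upstream cluster, spanning 18898826 to 18898898 on chromosome 3L, went from 777 tags in control to 32 tags in the knockdown, 13.7 and 0.915 TPM. RpL26 as a whole was at 511 and 782 TPM, nearly all from the downstream start. In RpL17 a cluster of a single position had 204 control tags, and none was called there in the knockdown. The weakest single-position cluster called in either group had 50 tags, so fewer tags could have gone uncounted. In RpS3 a coding-exon cluster went from 5.13 to 0.486 TPM.

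**Figure D5:**
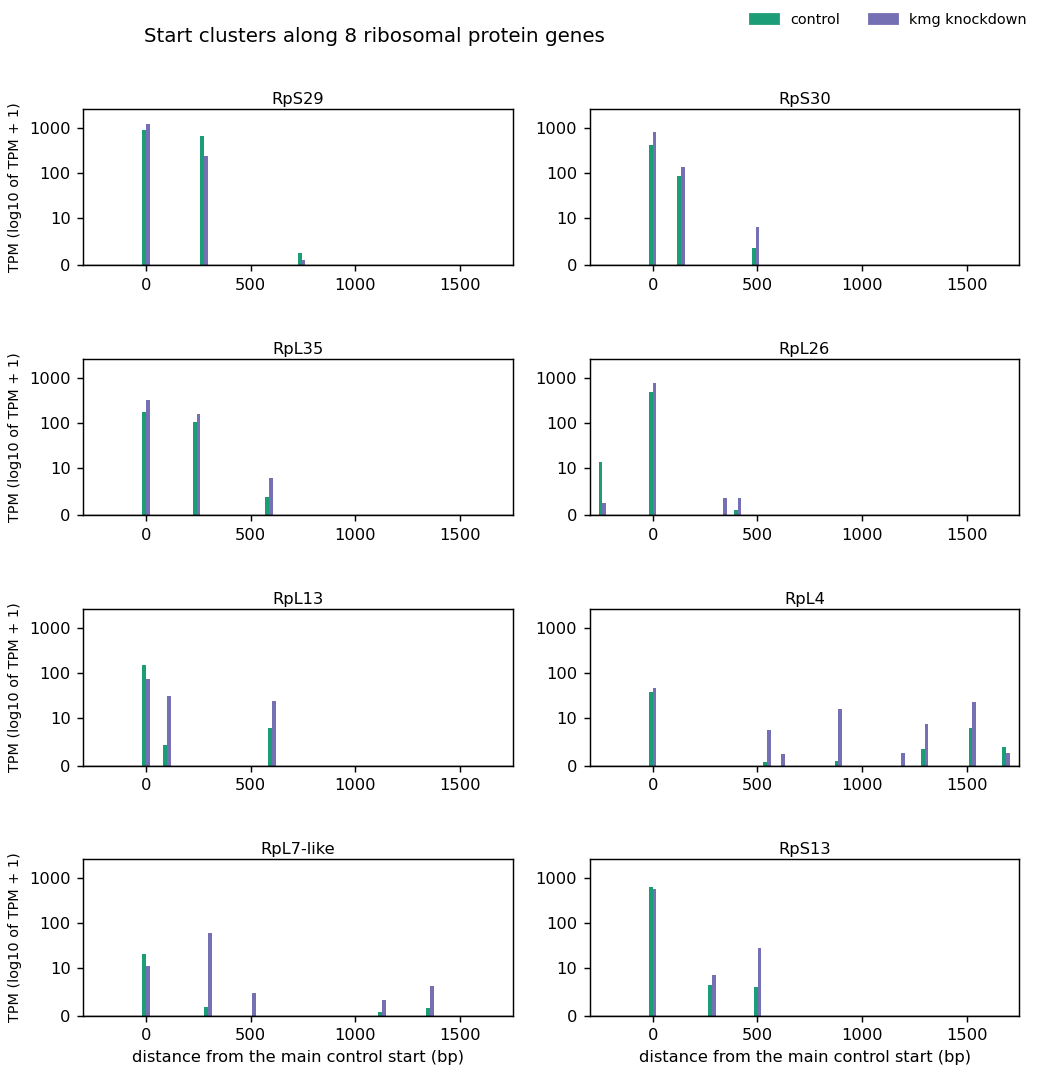
Start clusters along 8 ribosomal protein genes chosen after their values were seen, by distance of the dominant position from the main control start (x axis, bp, downstream to the right) and level (y axis, TPM on a log10 scale of TPM + 1), with control and knockdown bars side by side. RpS29 has an intronic cluster of 666 and 245 TPM, RpL7-like a coding-exon cluster of 0.566 and 60.6 TPM, and RpL13 a gained cluster of 1.75 and 31.2 TPM.

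Other genes of translation were set beside these. Of all 13063 genes, 21.4% rose and 5.44% fell by the 4-fold rule, with a median log2 ratio of 0.68. The 73 mitochondrial ribosomal protein genes had a median log2 ratio of 0.82, or 0.14 after rescaling, with 4 up and 1 down. Their median level was 23.9 TPM in control against 42.9 TPM in the knockdown. The gene counted as down, mRpL51, overlaps a knockdown cluster whose dominant position lay outside the window, so its tags were not credited to it. Of 10 elongation factor and related genes, 1 rose and 0 fell, with a median of 0.25. eEF1alpha1, which brings aminoacyl-tRNA to the ribosome, had a main cluster of 2 bp in both groups and levels of 525 and 595 TPM. Rack1, a scaffold bound to the small subunit, had a width of 3 and 4 bp and levels of 232 and 162 TPM. The other genes of this list were broader in control, from 8 bp in eEF2 to 126 bp in pAbp. In the knockdown eEF2 had 41 bp and pAbp 7 bp. eEF2, the translocase, was at 346 and 222 TPM, and the gene that rose was eEF1alpha2, from 7.64 to 44.1 TPM. Of 44 initiation factor genes, 3 rose and 1 fell, with a median of 0.22. Of 13 ribosome assembly genes none passed the rule, with a median of 0.40, and in the list of 7 RNA polymerase I genes Polr1A and Polr1B rose, from 1.56 to 16 TPM and from 3.68 to 25.4 TPM. Of 10 regulators none passed. Among them Trf2, a TBP relative known to act at ribosomal protein promoters, was at 150 and 271 TPM, and M1BP, a promoter-binding factor, at 16.1 and 44.9 TPM.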

How the data were processed

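CAGE tags of 4 libraries, 2 per group, were deposited by the authors in 3 tables: the start clusters of each group and a consensus list. The deposited cluster column is named TPM in the file headers but holds whole numbers summing to 56519714 and 34975246, so it was treated as tag counts. Per the submitters' processing notes, Trim Galore 0.6.6, STAR 2.7.11b and bedtools were used with BDGP6 and dm6, in roles not stated. The cluster caller was not given in the sources used here. Widths and dominant positions are the authors' values in bp, per the file headers. Cluster starts, which count from 0 in the tables, are printed from 1.

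Python 3.11.15 with pandas 2.3.3, numpy 2.4.6 and scipy 1.17.1 was used to credit clusters to genes of Ensembl release 115 and to scale counts per 1000000 tags; a cluster counted for every gene that claimed it. A pseudocount of 1 TPM and a filter of 1 TPM in either group were used. The labels do not say whether the libraries of a group came from separate flies. Counts per library were not analysed here, so no count model was fitted; the plan named the rule of size for this case. Ratio and share intervals are exact binomial. Rescaling divided the knockdown by the median ratio of consensus clusters called in both groups. The code was tested on simulated data. The members and lists were chosen with earlier results of these data known. Genes named are paralogs, those past the rule, the 5 highest and lowest, the 5 broadest and narrowest, those with shifted starts, the 5 strongest gained clusters, lost clusters and listed pathway genes; others were chosen after their values were seen. In the early germline marker list 3 of 4 genes were found. Values of 1 gene of the set are not reported here by name.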

Additional observations from a re-analysis of the deposited data

How the results depend on the processing

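No paired analysis was possible because the tables give 1 pooled value per group, and for the same reason no library could be left out. The genome sequence was not used here, so the planned search for a TCT initiator and its alternatives were not run. Rescaling by the median ratio of shared consensus clusters left 0 genes up, beside 14.1% of all genes, and 3 down, beside 9.36%. The median log2 ratio was then 0.05. Clusters at annotated TSSs alone gave a median of 0.67 (all genes -0.04), the strongest cluster alone 0.71 (all genes 0.40), and leaving out clusters claimed by another gene 0.73. The same 4 genes up and 2 down were called under every alternative but rescaling. The median control width was 11.5 bp without main clusters claimed by another gene. Without second copies, an alternative added after seeing the data, it was 9 bp in control against 13 bp in the knockdown. Sharp clusters of 5 bp or less numbered 14 in control and 13 in the knockdown, and 64 and 57 had 20 bp or less. The difference between the groups was thus widest at the limit of 10 bp, with 43 and 30. Main starts that moved at all numbered 12, and 2 moved over 50 bp. Gained further clusters numbered 53 with a pseudocount of 0.5 TPM, 9 with 3 TPM and 20 after rescaling, and 1 lost cluster was left with 3 TPM. With annotated TSSs alone the knockdown shares were 21.3% for RpS15Ab, 46.8% for RpS19b, 7.84% for RpL7-like, 21.7% for RpL24-like, 37.4% for RpL34a and 36.1% for RpL37-2, and the control share of RpL34a was 16%. RpL7-like has a share of 0% in both groups without clusters claimed by another gene, since CG34164 claims all of them. Depth limits the weakest starts: RpS28a had 204 tags in the knockdown, and the lost RpL17 cluster 204 tags in control.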

Other observations

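By chromosome arm, ribosomal protein genes were compared with other genes of a mean of at least 100 TPM over both groups. On X the 13 ribosomal protein genes had a median log2 ratio of 0.54 and the 233 other genes 0.37. On 2L the medians were 0.57 over 16 genes and -0.33 over 445, and on 2R 1.01 over 18 genes and -0.34 over 459. On 3L they were 0.69 over 14 genes and -0.29 over 426, and on 3R 0.83 over 18 genes and -0.35 over 520. RpS3A, the ribosomal protein gene on chromosome 4, was at 218 TPM in control against 307 TPM in the knockdown.

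The class of shortest transcripts had the highest median ratio. Of the 79 genes that were not second copies, the 5 with annotated mRNAs under 500 nt had a median log2 ratio of 1.54, the 33 from 500 to under 700 nt 0.90, the 27 from 700 to under 1000 nt 0.54 and the 14 of 1000 nt or more 0.57. Spearman's rho between mRNA length and log2 ratio was -0.26 over the 79 genes. RpL41 with 320 nt and RpL29 with 329 nt were in the shortest class, and so was RpL39 with 288 nt, which was at 303 TPM in control against 248 TPM in the knockdown. Read length differed between the groups, and its part in this pattern was not tested.

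The subunits drew nearly equal amounts of tags. The 53 large subunit genes summed to 14707 TPM in control against 23855 TPM in the knockdown. The 39 small subunit genes summed to 13038 and 21785 TPM, with the intronic cluster of RpS29 included. Per gene, the medians were 220 and 380 TPM for the large subunit and 288 and 474 TPM for the small subunit.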
